A study of Mus musculus with 12 samples.

Results

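The histone deacetylases Hdac2 to Hdac9 were followed in mouse lung cells that carry CD11c, the integrin chain by which alveolar macrophages and dendritic cells of the lung are usually recognised. All probes were taken whose gene symbol in the array annotation is Hdac2, Hdac3, Hdac4, Hdac5, Hdac6, Hdac7, Hdac8 or Hdac9. They numbered 16, for 8 of the 13095 gene symbols in the annotation, among 20501 probes with a single gene symbol and 45281 probes in all. Of these, 8 belong to the class IIa genes Hdac4, Hdac5, Hdac7 and Hdac9, and 8 to the other members Hdac2, Hdac3, Hdac6 and Hdac8.

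The cells came from 4 groups with 3 arrays each. They were Mir22 KO mice given nCB (nanoparticulate carbon black), Mir22 KO mice given PBS (phosphate-buffered saline), wild-type mice given nCB and wild-type mice given PBS. All groups carried the strain label B6(Cg)-Tyrc-2J/J and a labelled age of 4 months, with exposure begun at 2 months of age and lasting 1 month. The knockout is labelled as a loss of Mir22 in the mouse, with no promoter or cell type that would limit it, and no probe was listed for Mir22, so the deletion was not checked on these arrays. The labels call the cells APC and say that they were isolated with AutoMACS, a magnetic cell separator. Separate animals are not stated for the 3 arrays in a group, so p-values here reflect only how far these samples vary, which may be technical variation.

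Histone deacetylases remove acetyl groups from histone tails and from other proteins, and as parts of corepressor complexes they lower transcription at the genes they are brought to. Hdac2 and Hdac3 belong to class I, stay in the nucleus and work inside the Sin3, NuRD or NCoR complexes. Hdac8 is a class I enzyme that acts outside those complexes, and Hdac6 is a mainly cytoplasmic deacetylase of tubulin. The class IIa proteins have little catalytic activity of their own. They bind MEF2 transcription factors, bring the NCoR complex with Hdac3 to MEF2 target genes, and leave the nucleus when kinases such as CaMK and protein kinase D phosphorylate them and 14-3-3 proteins bind. In macrophages and dendritic cells, these enzymes are known as regulators of inflammatory genes. The study asked how miR-22, which is known to bind the messenger RNA of Hdac4, shapes the response of lung antigen-presenting cells to carbon black.

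The mature microRNAs of the deleted gene are shown because the genotype comparison rests on their loss. Their sequences are from RefSeq, read 5′ to 3′, with the seed (bases 2 to 8) in capitals.
mmu-miR-22-3p: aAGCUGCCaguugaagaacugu
mmu-miR-22-5p: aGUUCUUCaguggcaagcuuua
On build GRCm38.p6 the first lies at chr11:75463772-75463793 and the second at chr11:75463734-75463755, both on the plus strand. Each seed occurred in 1 of the 1679 mature mouse names searched, so neither arm shared its seed with another listed microRNA.

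Values are normalized log2 intensities. The mean scanned intensity of the 12 arrays lay between 156 and 218, and 31.4% to 35.0% of all probes were detected per array (detection p under 0.05 against negative control beads). Arrays of the same group correlated at 0.985 to 0.992 across probes. The lowest detected signal sat at 4.51 to 4.60 log2 units, which is the floor for the values that follow. The offset added before taking logs shrinks the fold changes of such dim signals.

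Of the 16 member probes, 12 were detected on at least 3 of 12 arrays and were tested, 6 in class IIa and 6 in the other members, and each of the 8 genes had at least 1 of them. The 4 remaining probes, 1 each for Hdac2, Hdac4, Hdac8 and Hdac9, were detected on 1 array each. Their log2 intensities lay between 4.17 and 4.85 on all arrays. The tested probes of Hdac2, Hdac3 and Hdac4 and 2 of the 3 probes of Hdac5 were detected on all 12 arrays. The tested probes of Hdac9, Hdac7, Hdac6 and Hdac8 and the last Hdac5 probe were detected on 3 to 6 arrays, so their values lie near the floor. A filter on detection keeps a probe that is bright in only 1 group, so the tested probes are not all member probes.

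Among the member probes detected on all 12 arrays, Hdac4 had the largest differences between group means. Its protein is the class IIa enzyme studied as a miR-22 target. In knockout nCB cells the Hdac4 probe read 6.40, 6.75 and 6.12 log2 units, against 5.83, 5.47 and 5.56 in knockout PBS cells. In wild-type nCB cells the same probe read 5.78, 5.75 and 5.70, against 6.39, 6.04 and 5.97 in wild-type PBS cells. All nCB arrays were above all PBS arrays in the knockout, and all nCB arrays were below all PBS arrays in the wild type.

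Hdac4 averaged 6.42 ± 0.32 log2 units in knockout nCB cells and 5.62 ± 0.18 in knockout PBS cells (SD, n = 3 each). It rose by 0.81 ± 0.16 log2 units (SE; 95% interval 0.46 to 1.15), or 1.75-fold, with an adjusted p of 0.00257 in limma after Benjamini-Hochberg adjustment over all 17346 tested probes. In wild-type cells Hdac4 averaged 5.74 ± 0.04 log2 units with nCB and 6.13 ± 0.23 with PBS (SD, n = 3 each). That difference was −0.39 ± 0.16 (SE; interval −0.73 to −0.05), and with an adjusted limma p of 0.124 it did not pass the test.

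Between genotypes under nCB, Hdac4 was higher in the knockout by 0.68 ± 0.16 log2 units (interval 0.34 to 1.02), or 1.61-fold, with an adjusted limma p of 0.0282 and no overlap between the 3 knockout and the 3 wild-type arrays. This call was lost when any 1 nCB array other than knockout nCB 3 was left out, with an adjusted limma p between 0.069 and 0.166, and with 4 other ways of processing. Among them, the authors' own processed values gave 0.94 log2 units with an adjusted p of 0.104. Under PBS the difference was −0.51 ± 0.16 (interval −0.85 to −0.17). All 3 knockout arrays lay below all 3 wild-type arrays, but the adjusted limma p was 0.265.

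The order of the group means of Hdac4 was therefore knockout nCB, wild-type PBS, wild-type nCB and knockout PBS from high to low. The arrays of knockout nCB and wild-type PBS overlapped, as did those of wild-type nCB and knockout PBS. The arrays of wild-type PBS and wild-type nCB did not overlap. The genotype by exposure interaction, which is the nCB effect in the knockout minus the nCB effect in the wild type, was 1.19 ± 0.23 log2 units (interval 0.71 to 1.68). Its p was 8.73e-05 and its adjusted limma p was 0.0631, just short of the threshold of 0.05. Of the 17346 probes, 0.0634% passed that test, and Hdac4 stood at rank 24 by its p.

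Hdac4 was 1 of 50 tested probes (0.288%) whose nCB arrays all lay below the PBS arrays in the wild type and all above them in the knockout. Both genotype contrasts and both exposure contrasts use the same arrays, so these results are not independent of each other. All of the Hdac4 values rest on 1 probe. The second Hdac4 probe, which targets the same RefSeq transcript, read 4.19, 4.60 and 4.57 in knockout nCB cells, against 4.19, 4.24 and 4.20 in knockout PBS cells. It read 4.48, 4.26 and 4.43 in wild-type nCB cells, against 4.51, 4.20 and 4.50 in wild-type PBS cells. It was detected on 1 array, of knockout nCB cells, and gives no second measurement.

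**Figure D1:**
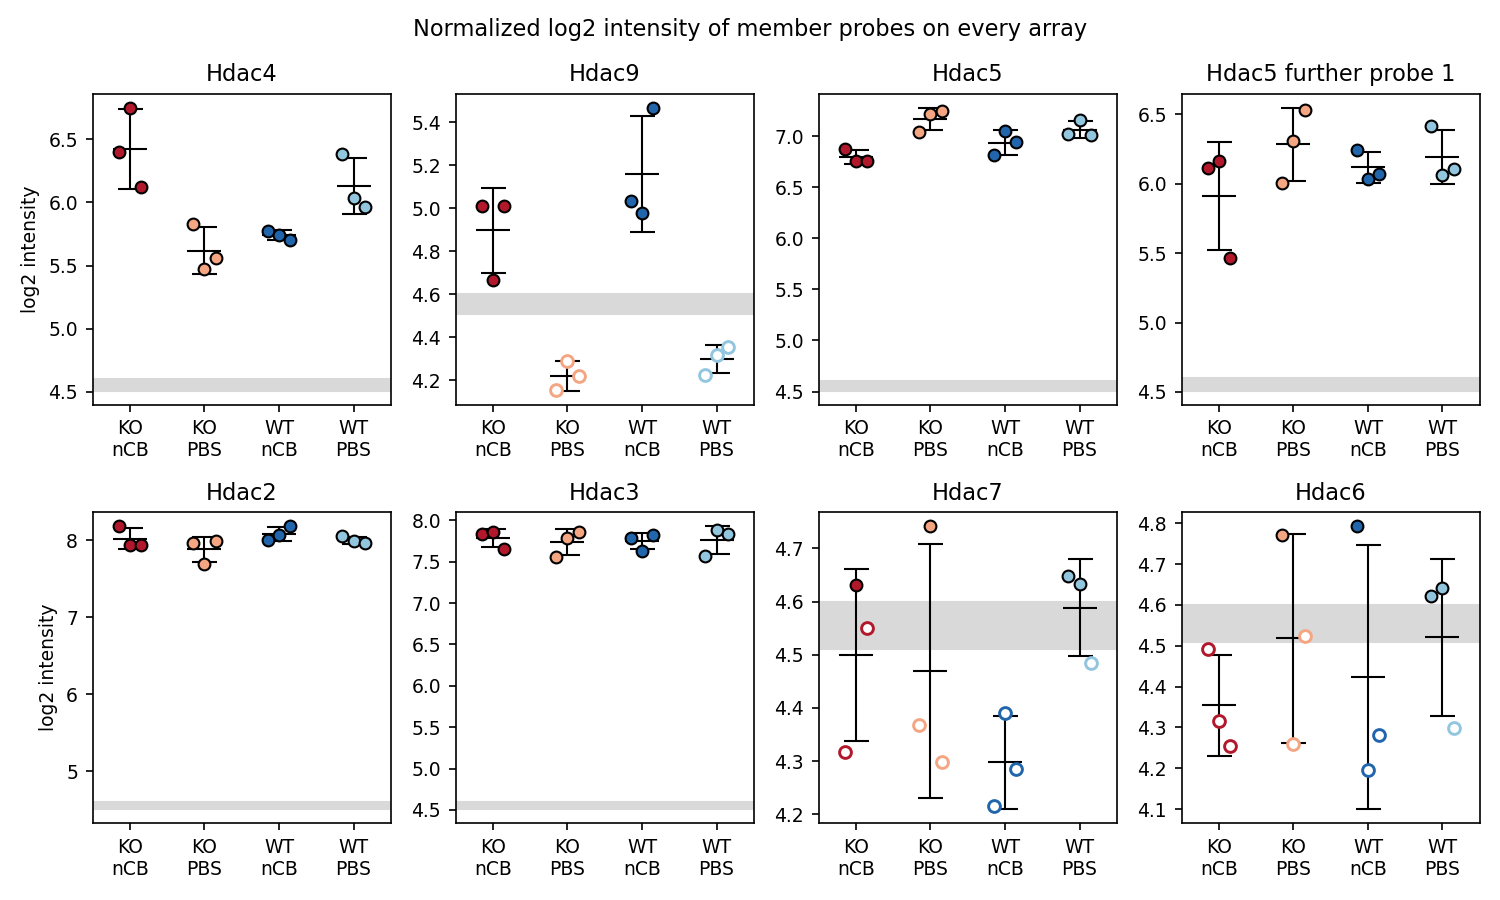
Normalized log2 intensity (y axis) of 8 member probes on every array, by group (x axis; KO is Mir22 KO, WT is wild type). Filled points are detected and open points are not, bars are the mean ± SD of 3 arrays, the grey band spans the lowest detected signal of the arrays (4.51 to 4.60), and y ranges differ between panels. Hdac4 is high in knockout nCB and wild-type PBS cells, while Hdac9 is above the floor only on the 6 nCB arrays.

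Hdac9 was the other class IIa member that rose, and it did so in both genotypes. Its protein is a class IIa partner of MEF2, and in muscle the gene is itself known as a MEF2 target. In knockout nCB cells the Hdac9 probe read 5.01, 4.67 and 5.01 log2 units, against 4.15, 4.29 and 4.22 in knockout PBS cells. In wild-type nCB cells it read 5.03, 4.98 and 5.47, against 4.23, 4.32 and 4.35 in wild-type PBS cells. The probe was detected on all 6 nCB arrays and on none of the 6 PBS arrays.

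Since the PBS signal was under the floor, the size of the Hdac9 change has only a lower bound, for which a PBS array was set to its lowest detected signal or to the probe's own signal if higher. With nCB, Hdac9 was at least 1.26-fold higher in the knockout (fitted difference 0.68 ± 0.14 log2 units, adjusted limma p 0.00383) and at least 1.54-fold higher in the wild type (0.86 ± 0.14, adjusted limma p 4.46e-04). The knockout and wild-type nCB arrays overlapped, with a difference of −0.26 ± 0.14 (interval −0.57 to 0.04) and an adjusted limma p of 0.392. With no PBS array above the floor, the difference between both nCB effects on Hdac9 has no measured size. The second Hdac9 probe was detected on 1 array, of knockout nCB cells.

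Hdac5, a class IIa enzyme controlled by the same export kinases, had 3 tested probes. The first read 6.87, 6.76 and 6.76 log2 units in knockout nCB cells, against 7.04, 7.22 and 7.25 in knockout PBS cells. It read 6.81, 7.05 and 6.95 in wild-type nCB cells, against 7.02, 7.16 and 7.01 in wild-type PBS cells. The knockout nCB arrays lay below the knockout PBS arrays, whereas the wild-type groups overlapped.

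This Hdac5 probe fell by 0.37 ± 0.12 log2 units with nCB in the knockout (interval −0.62 to −0.13), with an adjusted limma p of 0.0381. In the wild type the difference was −0.13 ± 0.12 with an adjusted limma p of 0.543, and the interaction of −0.25 ± 0.16 did not pass the test (adjusted limma p 0.663). The second Hdac5 probe gave a knockout difference of the same size, −0.37 ± 0.18, but its groups overlapped and its adjusted limma p was 0.204. The third gave −0.11 ± 0.15 with an adjusted limma p of 0.69. The Hdac5 call was lost when any 1 knockout array other than knockout PBS 1 was left out (adjusted limma p 0.0537 to 0.131), with the replicate number as a block (0.0541), and with 3 other settings.

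Hdac7, the class IIa member known for its role in lymphocytes and vessels, stayed near the floor, and its probe was detected on 4 of 12 arrays. It read 4.32, 4.63 and 4.55 log2 units in knockout nCB cells, against 4.37, 4.74 and 4.30 in knockout PBS cells. It read 4.22, 4.39 and 4.29 in wild-type nCB cells, where it was not detected, against 4.65, 4.63 and 4.48 in wild-type PBS cells. The wild-type nCB arrays lay below the wild-type PBS arrays, which gives only a bound of at least 1.03-fold lower, and the adjusted limma p was 0.179.

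The class I enzymes that sit in corepressor complexes differed little between groups. Hdac2 read 8.18, 7.94 and 7.94 log2 units in knockout nCB cells, against 7.96, 7.70 and 7.99 in knockout PBS cells. It read 8.00, 8.07 and 8.18 in wild-type nCB cells, against 8.05, 7.98 and 7.96 in wild-type PBS cells. The nCB and PBS arrays overlapped in both genotypes. The nCB difference of Hdac2 was 0.14 ± 0.12 in the knockout (interval −0.12 to 0.39) and 0.09 ± 0.12 in the wild type (interval −0.17 to 0.34).

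Hdac3, the catalytic partner that class IIa proteins recruit, read 7.84, 7.87 and 7.66 log2 units in knockout nCB cells, against 7.56, 7.79 and 7.86 in knockout PBS cells. It read 7.79, 7.64 and 7.83 in wild-type nCB cells, against 7.57, 7.88 and 7.84 in wild-type PBS cells. These groups overlapped as well. The nCB difference of Hdac3 was 0.05 ± 0.13 in the knockout (interval −0.22 to 0.33) and −0.01 ± 0.13 in the wild type (interval −0.29 to 0.26).

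For Hdac2 and Hdac3, these 95% intervals leave no room for a change as large as that of Hdac4 in the knockout. For Hdac6 and Hdac8 the signals were too close to the floor for such a statement. The Hdac6 probe was detected on 4 arrays and lay between 4.20 and 4.79 on all arrays. The 3 tested Hdac8 probes were detected on 3 arrays each and lay between 4.19 and 4.90. None of the 6 tested probes of Hdac2, Hdac3, Hdac6 and Hdac8 had an unadjusted limma p under 0.05 in any of the 5 comparisons.

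**Figure D2:**
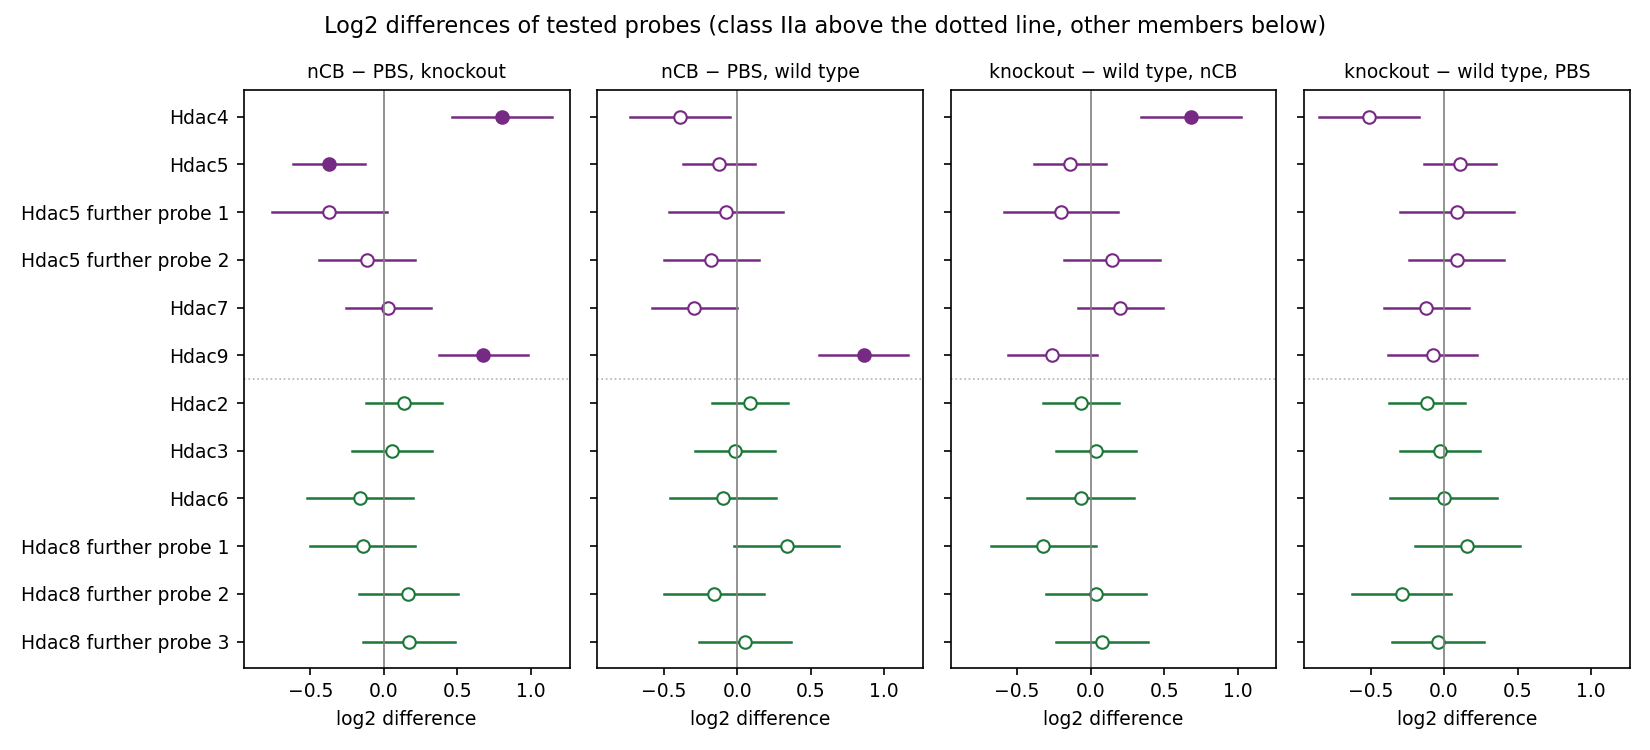
Log2 differences (x axis) of the 12 tested member probes (y axis) in the 4 comparisons of groups, with 95% intervals as lines. Filled points passed an adjusted limma p of 0.05. The passing points are Hdac4, Hdac5 and Hdac9 in the knockout with nCB, Hdac9 in the wild type with nCB, and Hdac4 between genotypes under nCB. Points for which a compared group had no array that detected the probe show no measured size. These are Hdac9 with nCB and between genotypes under PBS, Hdac7 in the wild type and between genotypes under nCB, and several points of Hdac6, Hdac8 and the third Hdac5 probe.

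Counted over the family, class IIa held every call. With nCB in the knockout, 2 of 6 class IIa probes rose and 1 fell, against 0 of 6 probes of the other members, while 15.2% of all tested probes were called there (7.81% higher and 7.38% lower). With nCB in the wild type, 1 of 6 class IIa probes rose, against 0 of 6 others, beside 15.9% of all tested probes (7.88% higher). That probe, and 1 of the 2 that rose in the knockout, was Hdac9. It passed the detection filter only through its nCB arrays, so its calls are no support for a difference between the classes. Among the others, the probes of Hdac6 and Hdac8 lay near the floor. Between knockout and wild type under nCB, 1 of 6 class IIa probes was higher, against 0 of 6 others, beside 3.4% of all (1.84% higher). Under PBS the genotypes differed in 0 of 12 member probes by limma (1 had an unadjusted p under 0.05), while 0.778% of all tested probes were called and 7.54% had an unadjusted p under 0.05. The interaction in limma called 0 of 12, again with 1 at an unadjusted p under 0.05, while 0.0634% of all tested probes were called and 9.96% had an unadjusted p under 0.05. These shares of 1 in 12 are near those of all probes.

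The class IIa calls did not run in 1 direction. With nCB in the knockout the median log2 difference was −0.04 over the class IIa probes and 0.09 over the others, against −0.02 over all tested probes. In the wild type it was −0.15 over the class IIa probes and 0.02 over the others, against −0.02 over all. The 6 class IIa probes stand for 4 genes, since 3 of them target Hdac5, and their median depends on which probes are counted. In the knockout it was 0.35 with 1 probe per gene and −0.37 over the probes detected on all 12 arrays, and in the wild type it was −0.35 with the authors' values. These counts describe a few probes, and the difference between class IIa and the other members was not tested. Groups did not overlap for 3 of the 6 class IIa probes in each genotype with nCB, against 0 of the 6 others. The Hdac6 and Hdac8 probes among these others lay near the floor, so the split is no support for a difference between the classes. Over the family, groups did not overlap for 3 of 12 probes in each genotype. This share was no higher than that of all tested probes, 29.6% in the knockout and 32% in the wild type. Between the genotypes the groups did not overlap for 1 class IIa probe, Hdac4, under nCB (19.8% of all probes) and under PBS (12.6% of all).

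**Figure D3:**
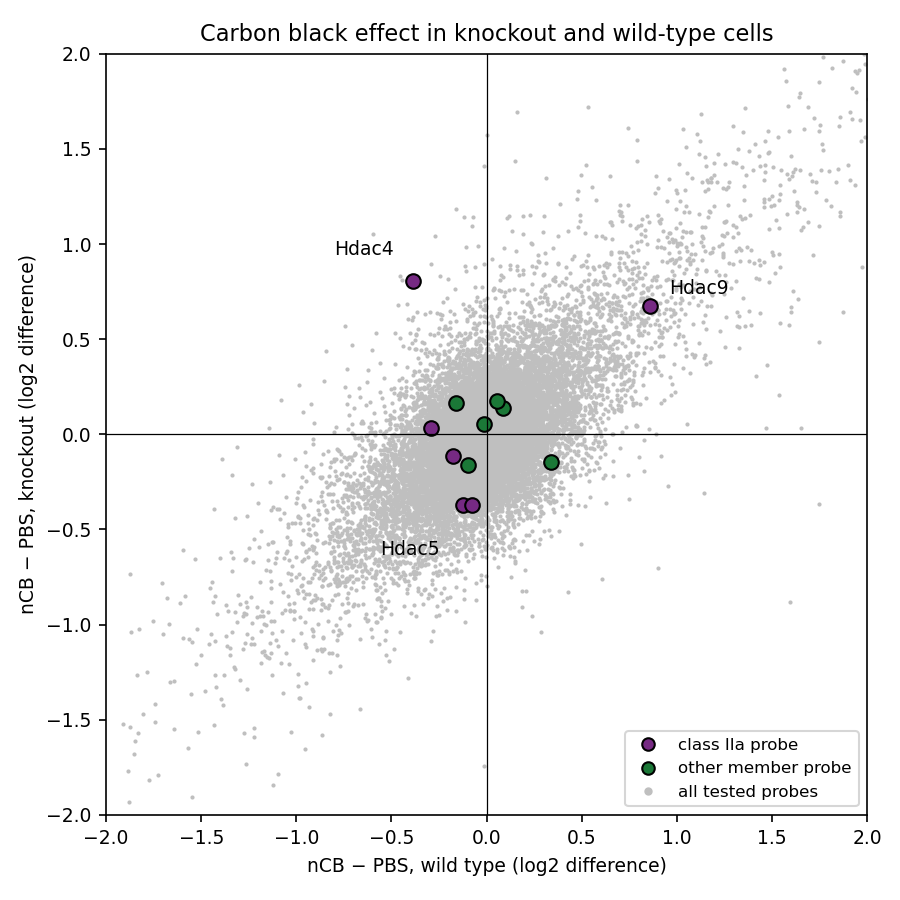
The nCB effect in knockout cells (y axis, log2 difference of nCB minus PBS) against that in wild-type cells (x axis) for all tested probes in grey and the 12 member probes in colour. Axes end at 2 log2 units on either side, which leaves 120 grey probes outside. Hdac4 lies at 0.81 in the knockout and −0.39 in the wild type, apart from the diagonal of equal effects, near which the fitted values of Hdac9 fall.

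Across the 12 arrays, the highest correlation of another member with Hdac4 was 0.45, for an Hdac8 probe detected on 3 of them. The Pearson correlation of Hdac4 was −0.62 with the first Hdac5 probe, 0.31 with Hdac7, 0.26 with Hdac2, 0.05 with Hdac9 and 0.02 with Hdac3. The 5 named genes most like it over the 12 arrays were Ahctf1 (r = 0.898), Cstdc4 (0.891), Ankrd10 (0.888), Ankfy1 (0.885) and 4632427E13Rik (0.879). The most opposite were Rpl10a (r = −0.944), Pts (−0.908) and Mrpl49 (−0.9). The points of these correlations share the arrays and their normalization, and the genes were picked as the extremes among all probes.

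The most opposite gene encodes a protein of the large ribosomal subunit. Rpl10a averaged 12.69 log2 units in knockout nCB cells and 12.86 in knockout PBS cells, and 12.82 in wild-type nCB cells and 12.73 in wild-type PBS cells. Its group means thus span a far smaller range than those of Hdac4, in the reverse order.

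Marker genes moved with nCB as well, and their part in the Hdac results was not tested. Of all tested probes, 7.81% rose and 7.38% fell with nCB in the knockout, and 7.88% rose and 8% fell in the wild type, against which the marker and list counts can be read. Of 10 tested alveolar macrophage markers, 4 fell with nCB in the knockout and 7 in the wild type. Their summed linear intensity ran from 21190 to 23760 in knockout nCB cells, against 25480 to 27450 in knockout PBS cells. It ran from 15080 to 18610 in wild-type nCB cells, against 26240 to 27030 in wild-type PBS cells. Chil3 was the brightest of these markers in every group and so weighs most in the sum. In bulk RNA of this kind, fewer cells of a type and less RNA per cell cannot be told apart.

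Of 11 tested markers of monocytes or interstitial macrophages, 8 rose with nCB in the knockout, and 5 rose and 1 fell in the wild type. Their summed intensity ran from 6503 to 8717 in knockout nCB cells, against 5122 to 5166 in knockout PBS cells. It ran from 8498 to 9696 in wild-type nCB cells, against 4383 to 4892 in wild-type PBS cells. In PBS cells the brightest of these markers was Fcgr4, at 11.87 log2 units in the knockout and 11.62 in the wild type. Fcgr4 was the 1 that fell in the wild type with nCB (−0.74 log2 units). Of the markers that rose, C1qb, a chain of complement C1q, was higher with nCB by 4.38 log2 units in the knockout and by 4.54 in the wild type. Hdac9 rose in both genotypes beside these markers, while Hdac4 rose in the knockout and was at −0.39 log2 units in the wild type.

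The genotypes also differed in markers under nCB, the condition in which Hdac4 was higher in the knockout. There 3 of 10 alveolar macrophage markers were higher in the knockout, and 4 of 11 markers of monocytes or interstitial macrophages were lower and 1 was higher, beside 1.84% of all tested probes higher and 1.56% lower. The 3 alveolar macrophage markers were Krt79 (1.34 log2 units), Marco, a scavenger receptor (1.01), and the cytokine gene Il18 (0.72). The higher marker of monocytes or interstitial macrophages was Fcgr4 (0.68). Under PBS no marker of these lists passed the limma test between the genotypes, but 1 of 9 dendritic cell markers was lower in the knockout, beside 0.478% of all tested probes. It was Mgl2, a lectin gene of dendritic cells and macrophages, which was lower in the knockout by −0.75 ± 0.16 log2 units under PBS (adjusted limma p 0.0414) and by −0.80 ± 0.16 under nCB (0.0116), and was named after its values were seen. Itgax, which encodes CD11c itself, was detected on all 12 arrays and passed the test in none of the comparisons. Its linear intensity was 64.0 to 74.5 in knockout nCB cells, 38.9 to 73.6 in knockout PBS cells, 43.4 to 63.4 in wild-type nCB cells and 54.0 to 68.4 in wild-type PBS cells.

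Markers of other cells were present on all arrays. Conventional dendritic cell markers summed to 656 to 997 in knockout nCB cells, 398 to 457 in knockout PBS cells, 957 to 1058 in wild-type nCB cells and 519 to 568 in wild-type PBS cells. In nCB cells of both genotypes Itgae was the brightest of these markers and so weighs most in the sum. With nCB Itgae rose by 2.26 log2 units in the knockout and by 2.57 in the wild type. Of 9 tested, 3 rose with nCB in the knockout, and 4 rose and 1 fell in the wild type. Of 6 neutrophil markers 1 rose in the knockout and 3 fell in the wild type, and of 4 B cell markers 1 rose in each genotype and 2 fell in the wild type. Of 6 T or NK cell markers 1 rose in the wild type, and of 6 lung epithelial markers 1 rose in the knockout. The lung epithelial markers summed to 6837 to 7953 in knockout nCB cells and 3902 to 7093 in knockout PBS cells. Their sum was 6069 to 6958 in wild-type nCB cells and 6603 to 8982 in wild-type PBS cells. Scgb1a1 was the brightest of them in every group. Siglecf lay near the floor in every group, detected on 3 of 12 arrays and on none of the knockout nCB arrays. Ccr2 was detected on 6 of 12 arrays and Blnk on 9, but neither on a knockout PBS array. Klrb1c was detected on 5 of 12 arrays and on none of the wild-type nCB arrays.

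RNA of partners, regulators and targets of class IIa enzymes, and of acetyltransferases, was read from 5 gene lists, with 1 probe per gene. In the corepressor list (Sin3, NuRD, CoREST and NCoR parts), 17 of 20 genes were tested. With nCB 2 fell in the knockout, 2 fell in the wild type and none rose. They were Mta3, a NuRD subunit, which fell by 0.35 ± 0.11 log2 units in the knockout (adjusted limma p 0.049) and by 0.52 ± 0.11 in the wild type (0.00454), Rbbp7 in the knockout (−0.59 ± 0.14, 0.0069) and Sin3b, a Sin3 scaffold, in the wild type. Mta3 had a second probe that fell in both genotypes too, whereas only 1 of 3 further Rbbp7 probes passed the test. Rbbp7, a histone-binding subunit, was also lower in knockout than in wild-type cells under nCB, by −0.57 ± 0.14 (adjusted limma p 0.0295). Ncor1, a core protein of the complex that class IIa enzymes recruit, had no listed probe.

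Among the MEF2 factors and other direct partners, 8 of 12 genes were tested. With nCB 1 rose and 1 fell in the knockout, and none passed in the wild type. Mef2c, a transcription factor that class IIa enzymes repress, averaged 5.69 log2 units in knockout nCB cells and 5.23 in knockout PBS cells, and 6.04 in wild-type nCB cells and 5.85 in wild-type PBS cells. It rose with nCB in the knockout by 0.47 ± 0.13 (adjusted limma p 0.0212) and was lower in knockout than in wild-type cells under PBS by −0.62 ± 0.13 (0.0324). None of 3 further Mef2c probes passed in either of these 2 comparisons. Runx1, a partner of several deacetylases, fell with nCB in the knockout by 0.68 ± 0.20 (adjusted limma p 0.0285), and its second probe did not pass. Mef2d, detected on 5 arrays, differed by −0.06 ± 0.18 with nCB in the knockout (adjusted limma p 0.873). In the wild type, where no PBS array detected it, the nCB signal was at least 1.18-fold that of PBS and the test was not passed (0.145). Mef2a had no listed probe.

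The kinases and 14-3-3 proteins that move class IIa enzymes out of the nucleus were tested for 15 of 20 genes. With nCB 1 fell in the knockout and 4 fell in the wild type, beside 7.38% and 8% of all tested probes, and none rose in either. The median log2 difference was −0.13 in the knockout and −0.37 in the wild type, against −0.02 over all probes in both. In the knockout the gene was Camk2d, a CaMK II subunit (−0.70 ± 0.15, adjusted limma p 0.0042). In the wild type they were Camk2d (−0.74 ± 0.15, 0.00237), the microtubule-affinity kinase Mark2 (−0.67 ± 0.14, 0.00249), protein kinase D2 or Prkd2 (−0.52 ± 0.13, 0.0109) and the CaMK II subunit Camk2g (−0.58 ± 0.15, 0.0147). The probes of some genes disagreed. Of 5 further Camk2d probes 2 fell in the wild type and none in the knockout, neither of 2 further Camk2g probes passed, and the further Mark2 probe fell in the wild type. Under nCB, 1 further Camk2d probe was at least 1.61-fold higher in the knockout than in the wild type (adjusted limma p 0.0214). The Camk2d probe used for the list did not pass there (0.729).

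Among 8 genes known as MEF2 targets, 6 were tested, and with nCB 1 rose and 2 fell in each genotype. Egr1, an immediate early transcription factor, averaged 7.65 log2 units in knockout nCB cells and 9.87 in knockout PBS cells, and 7.66 in wild-type nCB cells and 8.96 in wild-type PBS cells. It fell by 2.22 ± 0.27 in the knockout (adjusted limma p 3.12e-05) and by 1.30 ± 0.27 in the wild type (0.00317). Jun, a subunit of the AP-1 factor, fell in the knockout by 1.16 ± 0.18 (adjusted limma p 3.83e-04) and differed by −0.53 ± 0.18 in the wild type (0.063). Klf2, a Krüppel-like transcription factor, fell in the wild type by 0.49 ± 0.15 (adjusted limma p 0.0353) and differed by 0.12 ± 0.15 in the knockout.

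Egr3, an immediate early factor related to Egr1, went the other way. It was at least 1.18-fold higher with nCB in the knockout, where the PBS arrays did not detect it (adjusted limma p 0.0369), and rose by 0.99 ± 0.15 log2 units in the wild type (1.43e-04). Under nCB it was lower in the knockout by −0.78 ± 0.15 (adjusted limma p 0.00671). Its second probe passed none of these tests. Fos, another AP-1 subunit, was not on the MEF2 target list. It fell by 1.84 ± 0.25 in the knockout (adjusted limma p 8.03e-05) and by 1.13 ± 0.25 in the wild type (0.00464). Il6 was detected on 2 arrays and was not tested.

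Histone acetyltransferases, the enzymes that oppose deacetylases, were tested for 11 of 13 genes. With nCB Kat6a rose in the knockout by 0.94 ± 0.23 log2 units (adjusted limma p 0.0101), and Kat6b fell in the wild type by 0.63 ± 0.13 (0.00236). Kat6b was also lower in knockout than in wild-type cells under PBS, by −0.68 ± 0.13 (adjusted limma p 0.0149). None of the 5 lists had a member past the interaction test by limma. Of the other classical deacetylases, Hdac10 was detected on 1 array and Hdac1 and Hdac11 had no listed probe.

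**Figure D4:**
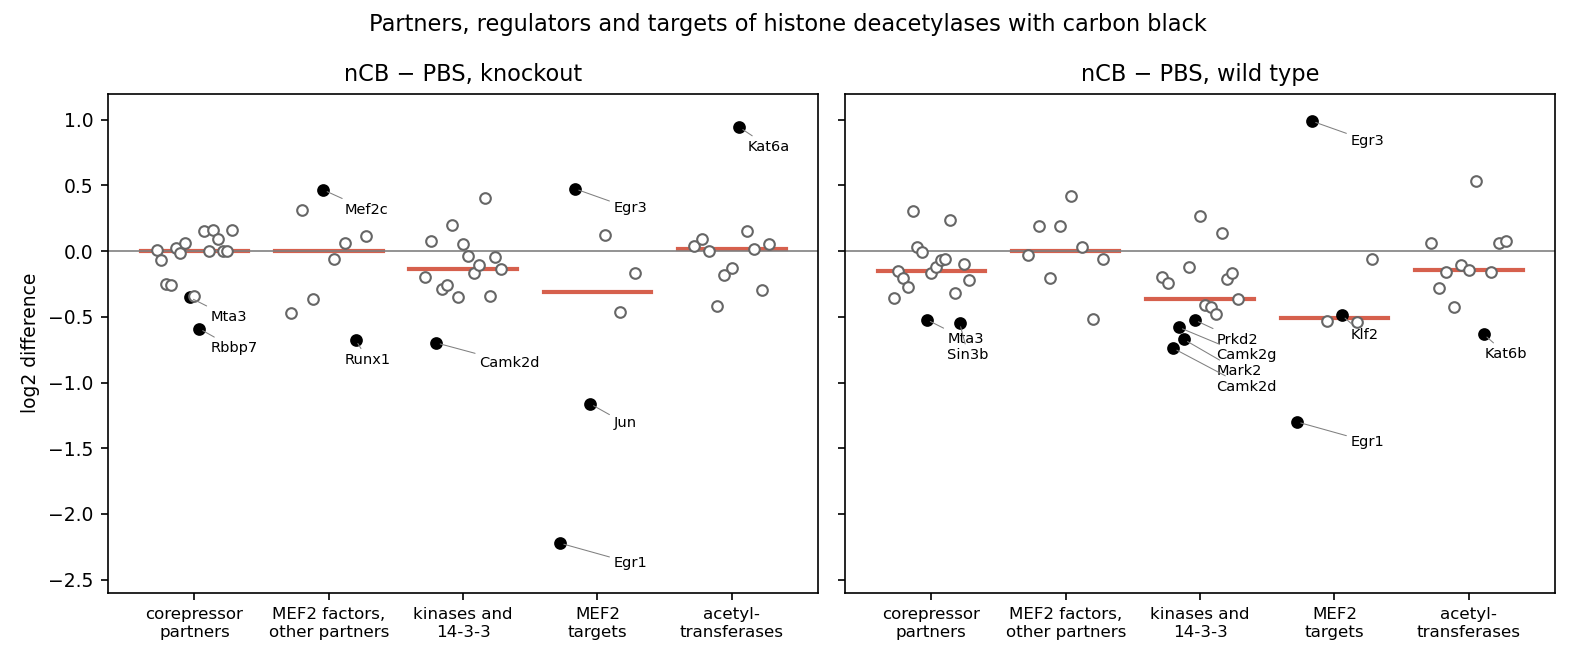
Log2 difference of nCB minus PBS (y axis) for each tested gene of 5 lists (x axis), in knockout cells on the left and wild-type cells on the right, with 1 probe per gene. Filled, named points passed an adjusted limma p of 0.05 and red bars are list medians. In the kinase and 14-3-3 list the median is −0.13 in the knockout and −0.37 in the wild type.

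The promoters of Hdac4 and Hdac9 are shown because these members rose with nCB in at least 1 genotype. Each window holds 250 bases before and 50 bases after an annotated start, from RefSeq on build GRCm38.p6, printed 5′ to 3′ along the gene's minus strand. Capitals mark the motif GGGCGG in Hdac4 and the motif TGANTCA in Hdac9.
Hdac4: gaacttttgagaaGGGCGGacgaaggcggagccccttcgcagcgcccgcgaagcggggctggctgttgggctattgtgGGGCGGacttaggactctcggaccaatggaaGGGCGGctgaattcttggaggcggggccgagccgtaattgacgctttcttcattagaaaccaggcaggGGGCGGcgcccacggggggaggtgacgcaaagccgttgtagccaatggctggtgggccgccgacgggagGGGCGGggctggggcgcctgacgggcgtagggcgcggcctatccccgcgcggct
Hdac9 first window: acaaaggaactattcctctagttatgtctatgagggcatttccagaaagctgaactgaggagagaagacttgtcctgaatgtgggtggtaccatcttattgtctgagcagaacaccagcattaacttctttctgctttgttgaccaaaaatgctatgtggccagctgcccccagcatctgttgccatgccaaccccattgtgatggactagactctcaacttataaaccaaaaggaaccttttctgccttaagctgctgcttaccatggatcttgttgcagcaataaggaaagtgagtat
Hdac9 second window: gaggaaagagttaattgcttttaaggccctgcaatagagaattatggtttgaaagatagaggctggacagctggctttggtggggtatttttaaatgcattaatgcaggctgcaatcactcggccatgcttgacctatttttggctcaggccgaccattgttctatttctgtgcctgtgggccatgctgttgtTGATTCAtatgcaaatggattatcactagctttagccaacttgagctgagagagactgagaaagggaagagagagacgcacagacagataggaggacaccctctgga

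The Hdac4 window lies at chr1:92180292-92180591, and those of Hdac9 lie at chr12:34917046-34917345 and chr12:34528840-34529139. The Hdac4 window was 68.0% G and C with 32 CpG dinucleotides, against medians of 52.7% and 7 over all 32851 promoter windows of the table. The Hdac9 windows were 44.0% and 45.3% G and C, with 0 and 3 CpG. GGGCGG, the core of Sp1 family sites, was searched on both strands and occurred 5 times in the Hdac4 window, and 35.7% of all windows held at least 1. TGANTCA, the AP-1 motif, occurred once in the second Hdac9 window, and 7.81% of all windows held it. The MEF2 motif and TGACGTCA, found in 3.19% and 1.79% of all windows, had no match in these windows. A match describes the letters of the window and was not tested as a binding site. Of the 8 members, 7 had a window in the table. Among them, the Hdac6 window also held GGGCGG 5 times, and 1 Hdac7 window held TGANTCA. The Hdac2 window was 69.7% G and C with 36 CpG. The motif matches and the high G and C content were therefore not particular to Hdac4 or Hdac9. The 2 Hdac9 windows had the lowest G and C content and the fewest CpG among the member windows.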

How the data were processed

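RNA from 12 samples was hybridised to Illumina bead arrays after conversion of 100 ng of RNA to biotin-labelled cRNA, per the labels. The deposited table holds the scanned intensity of 45281 probes and a detection p-value per probe, exported with GenomeStudio per the submitters' processing notes (version not given in the sources used here). The authors' processed matrix is on a log2 scale for 24952 probes, those detected on at least 1 array, with the same column median (3.12) on every array, and was used as an alternative. Its exact normalization is not given in the sources used here.

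The intensities were background-corrected and quantile-normalized by the neqc function (limma 3.58.1, R 4.3.3; background from the detection p-values, offset 16). The 17346 probes tested had a detection p under 0.05 on 3 or more of the 12 arrays. limma fitted 1 mean per group to all 12 arrays (8 residual and 7.49 prior degrees of freedom). Of the 5 comparisons, 2 set nCB against PBS within a genotype, 2 set the knockout against the wild type within an exposure, and 1 was the interaction. Tests were two-sided with Benjamini-Hochberg adjustment over all tested probes, and a call needs an adjusted p under 0.05. The steps were tested on simulated data. The smallest two-sided p of an exact permutation test between groups of 3 is 0.1, so single probes were tested by limma only, and the number of arrays limits the precision.

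Where no array of a group detected a probe, the fold is a bound. The members, the gene lists, their named examples (up to 4 called members with the smallest p per list, and Mef2a, Mef2c, Mef2d, Ncor1, Jun, Fos and Il6 among those always named) and the tests were chosen with earlier results of these data known. No pairing of arrays across groups by replicate number was seen. Alternatives were another scaling, offset and filter, 1 probe per gene symbol, the authors' values, fits on the compared groups alone, an intensity trend with robust fitting, a replicate block, and leaving out each array. One gene of the lists is not reported here.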

Additional observations from a re-analysis of the deposited data

Results flagged for a closer look

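The nCB effect on Hdac4 differed between the genotypes by 1.19 log2 units (knockout minus wild type). All 3 knockout nCB arrays lay above the knockout PBS arrays and all 3 wild-type nCB arrays lay below the wild-type PBS arrays. The interaction test in limma gave an adjusted p of 0.0631, and the value rests on 1 probe with raw intensities of 127 to 184 in knockout nCB cells, 96.6 to 133 in knockout PBS cells, 120 to 124 in wild-type nCB cells and 137 to 154 in wild-type PBS cells.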

How the results depend on the processing

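No result changed its sign among the called values. The rise of Hdac4 in the knockout with nCB kept its call in all alternatives (0.53 log2 units with offset 50 to 1.13 with the authors' values, and 0.64 to 0.96 with 1 array left out; the highest adjusted limma p was 0.0476, with median scaling), and so did Hdac9 wherever it was tested. The Hdac4 difference between genotypes under nCB lost its call with median scaling (0.65, adjusted p 0.291), the authors' values (0.94, 0.104), no filter (0.68, 0.0924) and the compared groups alone (0.68, 0.0507), each of which left 0 member calls there. It ranged from 0.52 to 0.83 with 1 array left out (0 or 1 member calls). The Hdac4 interaction ran from 0.78 with offset 50 to 1.69 with the authors' values (adjusted p 0.0841 and 0.199), passed with an intensity trend and robust fitting (1.19, adjusted p 0.0365, 1 member call), ranged from 1.03 to 1.35 with 1 array left out (0 or 1 member calls), and passed there only without knockout nCB replicate 3 (adjusted p 0.0189). Requiring detection on all 12 arrays left 0 member calls in the wild type, since Hdac9 was then not tested. Over all probes, median scaling called 1703 probes in the wild type (706 higher and 997 lower), 1163 in the knockout, 175 between genotypes under nCB and 7 for the interaction, and moved the median of all probes by up to 0.11. Under PBS it called 21 higher and 77 lower, against 52 and 83 in the reported fit. Between genotypes under nCB, 191 probes were called with the authors' values, 334 with no filter, 383 with the compared groups alone and 213 to 718 with 1 array left out. For the interaction the count was 27 with offset 50, 7 with no filter, 2 with detection on all arrays, 27 with the trend and 7 to 32 with 1 array left out. Under PBS it was 87 to 142 with 1 array left out. Of 18 pairs of arrays from different groups with equal replicate numbers, 5 correlated above 0.1 after removal of the group means. Of 36 pairs with different numbers, 15 did, so no pairing by number was seen. The replicate block changed no Hdac4 call (adjusted p 0.00278 in the knockout, 0.0303 between genotypes under nCB, 0.0767 for the interaction) and ended the Hdac5 call. A chip or scan block was not run, since the file headers give none. Signals near the floor limit what Hdac6, Hdac7, Hdac8 and Hdac9 can show.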
